A study of Drosophila melanogaster with 3 samples.

Results

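The broad Myc peaks on Uextra are described here, from a study that mapped Myc in Kc167 cells by sequencing immunoprecipitated chromatin (ChIP-seq). Its members were chosen by 2 measured values of the peak list, the sequence a peak lies on and its width: every peak on Uextra of 1000 bp or more. There were 172 such peaks among 8233 on Uextra and 9897 in the whole list, and the other 8061 Uextra peaks, all under 1000 bp, are called narrow here. Kc167 cells are an established line made from Drosophila melanogaster embryos; the labels give the late embryonic stage, female sex and the genotype se/e for all samples. By the labels, 2 Myc ChIP samples and 1 input sample (sheared chromatin that was not immunoprecipitated) were sequenced, all from this 1 line without a treatment. The ChIP used a rabbit polyclonal antibody, listed as MycN, against the fly protein encoded by dm.

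Myc is a transcription factor that pairs with Max, binds E-box elements, and in flies promotes cell growth and the expression of genes for ribosome production. Uextra is not a chromosome. In release 5 of the fly genome it collects small scaffolds that could not be placed, set one after another along 1 coordinate, and such sequence is rich in repeats. A position on Uextra therefore does not tell where in the genome a peak lies, and no gene was assigned to any peak. The release 5 sequence was not used here, so no peak sequence is shown.

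The 2 ChIP samples and the input appear in the files as 1 list for the whole series, with 1 score per peak. Since read counts are not part of it, the samples' depth is unknown. No value below has a replicate error, and no sample could be left out or compared with another. Because width, position and score come from the same peak calls, the values are a description of this list and no test was made. Percentages are given with exact 95% binomial intervals, which cover the counting of peaks only. The score was made by the authors' peak caller on a scale that is not stated, so scores are compared only within the list. Differences and percentages of scores below describe the list on that unknown scale.

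Broad peaks were a small share of Uextra. They made up 2.09% of its peaks (172 of 8233, interval 1.79 to 2.42%) and 5.11% of the bases that Uextra peaks cover, or 224970 bp. On U, the other collection of unplaced scaffolds, 224 of 706 peaks were as wide as this (31.7%, 28.3 to 35.3%), and on the 6 chromosome arms 169 of 810 (20.9%, 18.1 to 23.8%). The broad Uextra peaks were also less wide than those of U. Their median width was 1280 bp (quartiles 1162.5 and 1400.25 bp, highest 2658 bp), against 1590 bp on U (1225.5 and 2041.25 bp, highest 9286 bp), where 26 peaks were wider than the widest on Uextra.

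The widest member covered positions 25889588 to 25892245, a width of 2658 bp, with a score of 33.82. It was followed by 8461371 to 8463626 (2256 bp, score 44.67) and 2469624 to 2471701 (2078 bp, score 63.27). Both peaks after these lay near the end of Uextra: 26918668 to 26920563 was 1896 bp wide with a score of 38.09, and 27245061 to 27246885 was 1825 bp wide with a score of 34.93. The other members of the 10 widest were 1632 to 1763 bp wide. Width and score did not order the members alike, since the highest score, 138.41, belonged to a peak of 1216 bp at 18613632 to 18614847 and the next, 134.41, to a peak of 1040 bp at 4753290 to 4754329.

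At the threshold itself, the 3 narrowest members were 1004, 1006 and 1006 bp wide with scores of 31.86, 31.26 and 35.54. The 3 widest peaks left out were 998, 998 and 997 bp wide with scores of 28.31, 47.4 and 27.73. The threshold of 1000 bp cut the widths differently along Uextra, so the coordinate was divided, after the widths had been seen, into the first 6 Mb, the stretch from 6 to 26 Mb and the rest.

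In the first 6 Mb, the 35 broad peaks were the upper tail of the widths, with no break at the threshold. There were 31 peaks of 1000 to 1199 bp and 75 of 900 to 999 bp, and only 2 peaks of 1200 to 1499 bp. The 35 broad peaks had a median width of 1100 bp, against 723 bp for the 817 narrow peaks of the same stretch. This stretch was not uniform. In its successive 2 Mb, the broad medians were 1128, 1055 and 1141 bp and the narrow medians 370, 761 and 727 bp. The first 2 Mb held 18 of the 35 broad peaks but only 79 of the 817 narrow ones. The width classes were not split further, so they do not show whether the widths had a break within the first 2 Mb. From 6 to 26 Mb the broad peaks stood apart from the narrow ones. The 124 broad peaks had a median width of 1334.5 bp and the 6367 narrow peaks one of 543 bp, and the counts per 100 bp class had a low point at 1000 to 1099 bp, with 6 peaks, between 34 peaks of 1300 to 1399 bp and 89 of 800 to 899 bp. From 26 Mb on, the 13 broad peaks had a median of 1252 bp, against 430 bp for 877 narrow peaks.

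**Figure D1:**
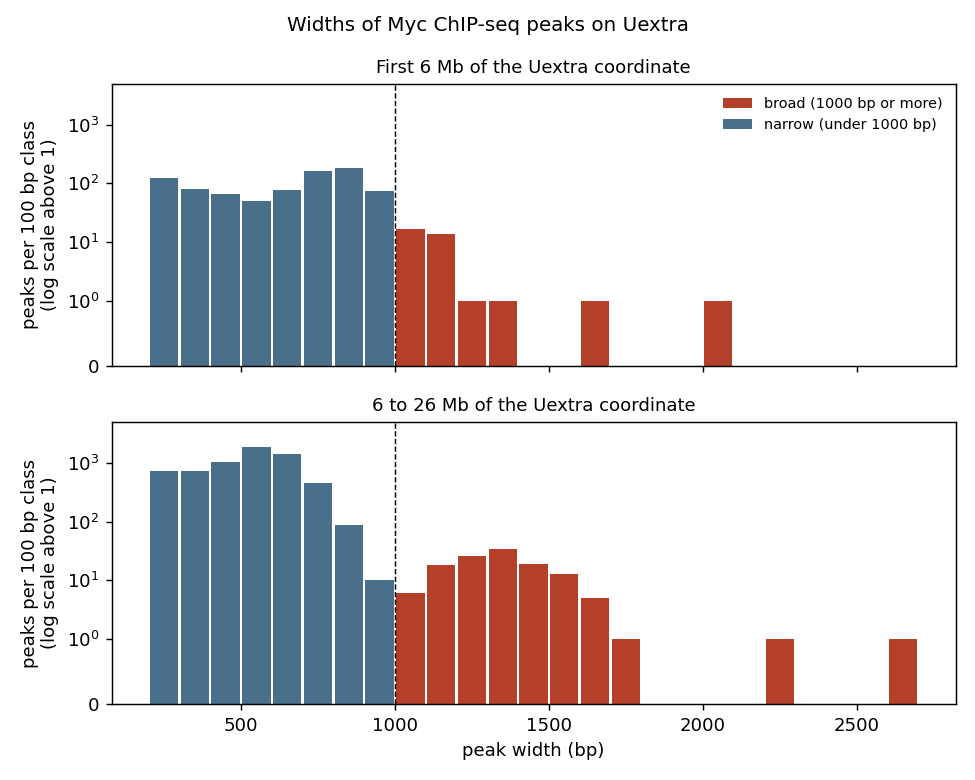
Number of Uextra peaks in each 100 bp class of width, in the first 6 Mb (upper panel) and from 6 to 26 Mb (lower panel). The vertical axis is logarithmic above 1; the dashed line is the 1000 bp threshold, with broad peaks in red and narrow peaks in blue. From 6 to 26 Mb the class of 1000 to 1099 bp, with 6 peaks, is a low point between both groups, and in the first 6 Mb there is no such low point at the threshold.

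Broad peaks were spread over the whole coordinate. The first member was 533489 to 535161 (1673 bp, score 73.7) and the last 28156509 to 28157586 (1078 bp, score 73.45). The first 6 Mb held 20.3% of the broad peaks (35 of 172, 14.6 to 27.1%) and 10.1% of the narrow peaks (817 of 8061, 9.48 to 10.8%). Of these 35, 18 lay in the first 2 Mb, where they were 18.6% of the peaks. The share in the first 6 Mb hangs on the threshold: it was 55.1% for peaks of at least 800 bp and 3.51% for peaks of at least 1200 bp. In the 10 bins of 2 Mb between 6 and 26 Mb, the share of broad peaks was between 0.942% and 3.09%, and each bin held between 5 and 22 of them.

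Between 6 and 26 Mb, though not before or after, broad and narrow peaks kept a nearly constant ratio of widths. These limits were set after the widths had been seen, so the contrast with the stretches before and after is a description. In the bins of 2 Mb from 6 to 26 Mb, the median width of broad peaks lay between 1244 and 1632 bp and that of narrow peaks between 502 and 649.5 bp. Both were highest in the bin from 6 to 8 Mb and lowest in the bin from 24 to 26 Mb. The ratio of the medians stayed between 2.43 and 2.57 in all 10 bins, and in the 3 bins of the first 6 Mb it was 3.05, 1.39 and 1.57. From 26 Mb on it was 2.85 and 2.95 in the last bins, which held 12 and 1 broad peaks. From 26 to 28 Mb the broad median was 1280 bp and the narrow median 449 bp. The broad median was thus higher and the narrow one lower than in the bin before. The rank correlation of width with position from 6 to 26 Mb was -0.457 over 124 broad peaks and -0.219 over 6367 narrow peaks; all these peaks share 1 list, and neighbours are not independent.

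From 6 to 26 Mb, the median width of the broad peaks was close to the median span of narrow peaks that lie side by side. Of the narrow peaks on Uextra, 1847 adjacent pairs had facing ends at most 500 bp apart, a limit set after the gaps had been seen, and 1539 of these pairs lay between 6 and 26 Mb. The distance from the start of the first to the end of the second peak had a median of 1314 bp in those pairs (quartiles 1196 and 1413 bp), against a median width of 1334.5 bp for the broad peaks (1232.25 and 1414.5 bp). Both medians depend on chosen limits. The 1000 bp rule cuts the broad widths (lowest 1006 bp) but not the spans (lowest 455 bp), which depend on the 500 bp limit instead. Their closeness is therefore a description only. Bin by bin, the median span of the pairs was 1217 to 1520.5 bp. In the first 6 Mb the values did not lie together: the broad peaks had a median width of 1100 bp and the 139 close pairs a median span of 1563 bp.

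**Figure D2:**
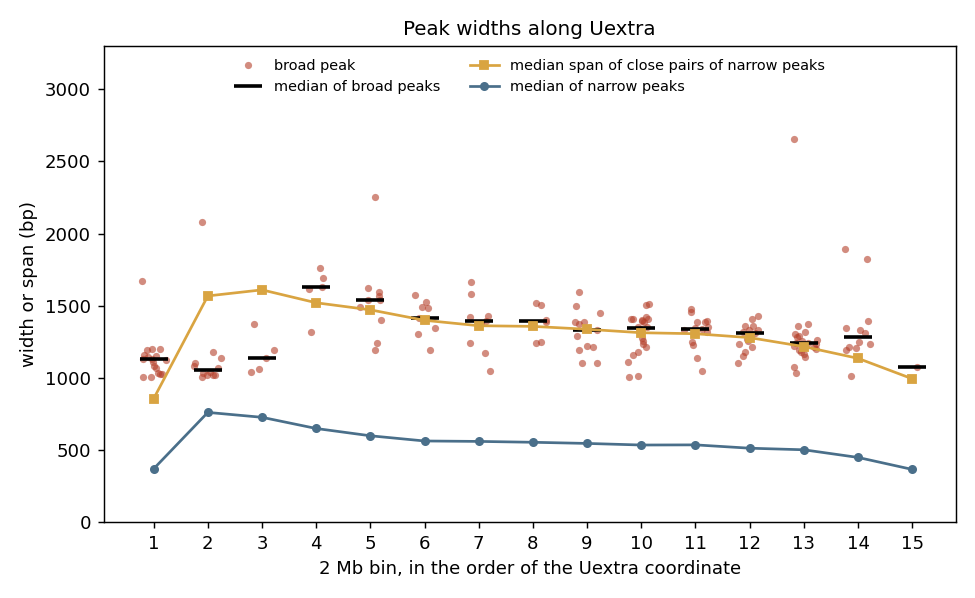
Width of each broad Uextra peak (red points) in 15 successive bins of 2 Mb, with the median of the broad peaks (black bars), the median span of close pairs of narrow peaks (yellow squares) and the median width of narrow peaks (blue circles), all in bp; points are shifted sideways at random to separate them. Between 6 and 26 Mb the medians of broad peaks are 1244 to 1632 bp and run beside the spans of the pairs, 1217 to 1520.5 bp. The 1000 bp rule cuts the broad widths but not the spans.

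Uextra peaks sat at regular distances, and this gives a scale on which to place the broad ones. The distance between the midpoints of a close pair, for peaks of at least 400 bp, is called a step here. Its median per bin was 918.5 bp from 6 to 8 Mb, 789.25 bp from 18 to 20 Mb and 732.25 bp from 24 to 26 Mb. For every peak, the local step was taken as the median over close pairs within 250 kb on either side. Close pairs set the step and so lie near 1 step by construction. The other adjacent narrow peaks did not set it, and of their 1334 distances of up to 3.75 steps between 6 and 26 Mb, 1314 lay within 0.25 of a step of a whole number (98.5%), a band that takes up 0.5 of each step. Of these distances, 770 were near 2 steps, with a median of 2.00, and 535 near 3 steps, with a median of 3.00.

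Broad peaks lay between these places. From 6 to 26 Mb, 112 distances between the midpoints of a broad and an adjacent narrow peak of at least 400 bp were no longer than 3.75 steps, and 109 of them (97.3%, 92.4 to 99.4%) lay within 0.25 of a whole number plus 0.5, so that the broad midpoint fell about midway between the places of narrow peaks. The same was so for 20 of the 1334 distances between narrow peaks (1.499%, 0.918 to 2.31%). These 1334 leave out narrow peaks with facing ends at most 500 bp apart, whereas the distances of broad peaks include such gaps. The 2 sets are therefore not filtered alike. A peak can give a distance on each side, so the distances are not independent, and the intervals do not allow for this. The broad peaks were near 1.5 steps from the narrow neighbour in 48 cases (median 1.49), near 2.5 steps in 35 (median 2.50) and near 3.5 steps in 26 (median 3.51). The remaining distances were near 1, 2 and 3 steps, 1 each. Part of the width that chose the members lies within each distance, so few could be near 1 step. Those near 4 steps are beyond the limit of 3.75. A band of 0.5 of each step is therefore no benchmark for the 97.3%, though distances near 2 and 3 steps were within reach. From 26 Mb on, all 7 such distances of broad peaks were near a whole number plus 0.5, and in the first 6 Mb 1 of 4 was.

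**Figure D3:**
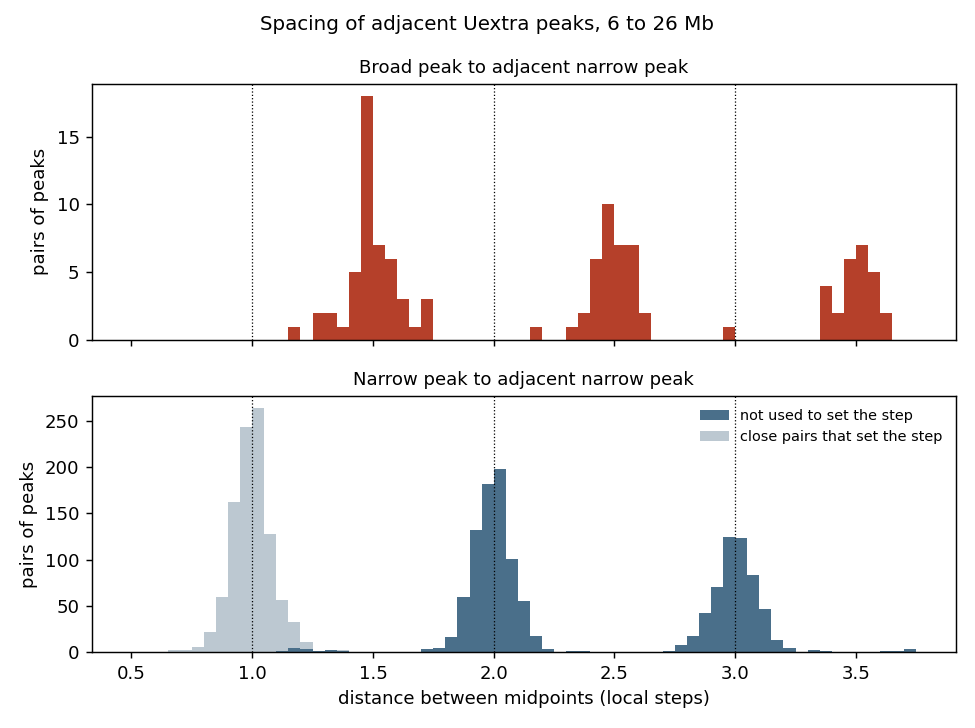
Distance between the midpoints of adjacent Uextra peaks from 6 to 26 Mb, in local steps, for a broad and a narrow peak (upper panel) and for narrow peaks (lower panel); dotted lines mark whole steps and bars count pairs of peaks. Distances from broad peaks gather at 1.5, 2.5 and 3.5 steps (109 of 112), and those between narrow peaks that did not set the step gather at 2 and 3 steps (770 and 535).

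The widths that chose the members can also be put in steps, as a description. From each broad peak's width the median width of the narrow peaks of at least 400 bp within 250 kb was taken away, and the rest was divided by the local step. From 6 to 26 Mb this gave a median of 0.993 steps (quartiles 0.858 and 1.07), and 107 of 124 broad peaks (86.3%) had between 0.75 and 1.25 extra steps. Of the others, 14 had fewer, 2 had at least 1.75, and 1 lay between. The 1000 bp rule itself sets a floor to these values: a peak of exactly 1000 bp would have had 0.295 to 0.669 extra steps at the places of these members (median 0.534), so the absence of lower values is no result and the 14 are what the rule leaves of that range. In the first 6 Mb a local step could be had for 10 of the 35 broad peaks only, all from position 2601096 on. The extra width of these 10 was 0.156 to 0.661 steps, with a median of 0.266 and a floor of 0.111 to 0.272. None of the 18 broad peaks in the first 2 Mb had a local step, so these values do not describe them.

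The 4 members with at least 1.75 extra steps are all among the 5 widest; the remaining one of these 5, at 2469624 to 2471701, had too few close pairs nearby for a local step. The peak at 8461371 to 8463626, with 1.81 extra steps, had its midpoint 2.99 steps before that of the next peak. The peak at 27245061 to 27246885, with 1.97 extra steps, had its midpoint 3.04 steps after that of the peak before it, which was 330 bp wide. Both distances were near whole steps. The peak at 26918668 to 26920563, with 2.08 extra steps, was not near a whole step from its neighbour: it stood 2.26 steps from a peak of 384 bp, within 0.25 of 2.5. The widest peak, at 25889588 to 25892245, had 2.95 extra steps, and its neighbours of 417 and 511 bp lay 2.49 and 2.52 steps away on either side. These are single peaks and carry no more than their values. Scaffold ends are not marked in the list, and whether a step is the spacing of scaffolds or a broad peak runs across the end of one was not tested.

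**Figure D4:**
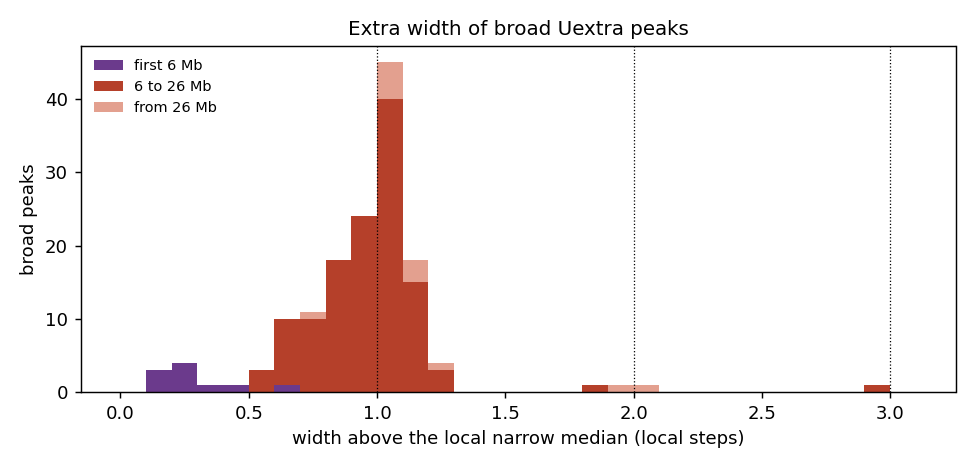
Width of broad Uextra peaks above the local median of narrow peaks, in local steps, for the 146 peaks with a local step; colours give the stretch of the coordinate and dotted lines whole steps. From 6 to 26 Mb the peaks gather at 1 step (median 0.993). The 10 peaks of the first 6 Mb with a local step, none of them in the first 2 Mb, lie below (median 0.266). A few peaks lie near 2 and 3 steps. The 1000 bp rule sets a floor of 0.295 to 0.669 from 6 to 26 Mb.

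The median score of broad peaks was above that of narrow peaks in all 15 bins of 2 Mb. Over all of Uextra the score of the 172 broad peaks had a median of 38.6 (quartiles 32.9 and 51.2, lowest 15.19, highest 138.41), against 25.5 for the 8061 narrow peaks (18.3 and 33.7, lowest 6.31, highest 148.57). The ranges overlapped, and the highest score on Uextra was that of a narrow peak. Of the broad peaks, 162 (94.2%, 89.6 to 97.2%) reached the narrow median. Per bin, the broad median was above the narrow median by 3.55 to 42.2 score units, and the difference of 42.2 was in the last bin, which held 1 broad peak.

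Against the higher score of each close pair, the broad peaks were less far apart. From 6 to 26 Mb the median was 37.5 for broad peaks (quartiles 32.9 and 45.7), 31.3 for the higher score of 1539 pairs (25.5 and 38.7) and 20.1 for the lower score of the same pairs. In the first 6 Mb it was 50.9 for 35 broad peaks and 31.9 for the higher score of 139 pairs, and from 26 Mb on 42.7 for 13 broad peaks and 32.5 for 169 pairs. Width and score come from the same peak calls and are not separate measures. Among narrow peaks the rank correlation of width and score was 0.589 over 8061 peaks. Among broad peaks it was 0.0785 over 172, a description of peaks that share the same libraries.

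**Figure D5:**
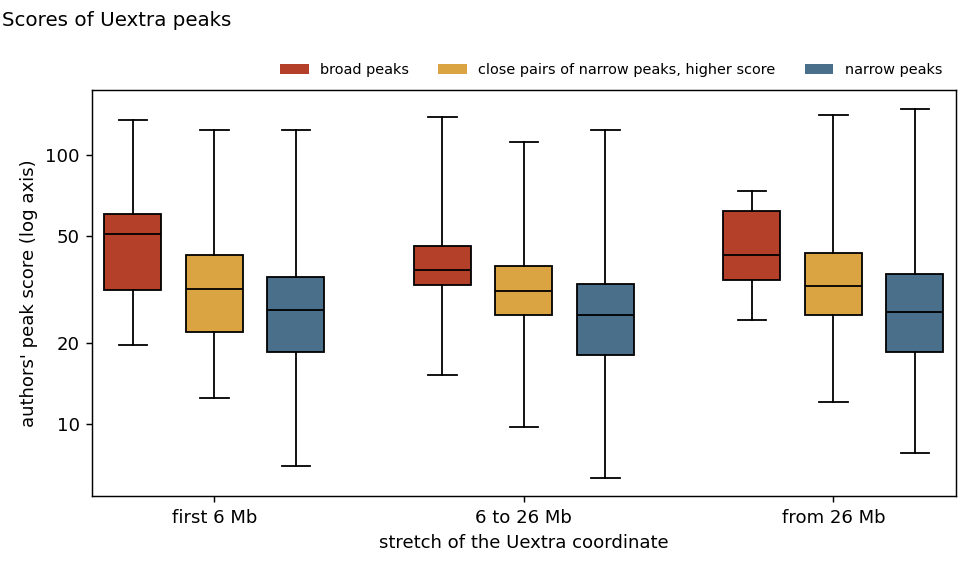
Score of the authors' peak caller, on a logarithmic axis, for broad peaks (red), the higher score of each close pair of narrow peaks (yellow) and narrow peaks (blue) in 3 stretches of Uextra. Boxes give the quartiles and median and whiskers the lowest and highest value; the broad medians of 50.9, 37.5 and 42.7 are above those of the pairs and of the narrow peaks in each stretch.

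The members with the highest scores did not lie together. After the peaks at 18613632 and 4753290 came 3385687 to 3386703 (1017 bp, score 83.74), 20679937 to 20681394 (1458 bp, score 78.23) and 1495306 to 1496506 (1201 bp, score 75.36). The lowest score, 15.19, was that of 24645713 to 24646995, a peak of 1283 bp, followed by 19.07 for 19501150 to 19502165 (1016 bp) and 19.68 for 1039984 to 1041049 (1066 bp). Score values held by at least 15 peaks of the whole list were found in 58.7% of broad peaks (101 of 172, 51.0 to 66.2%) and 75.6% of narrow peaks (6095 of 8061, 74.7 to 76.5%). The 8061 narrow peaks are most of the 9897 peaks of the list and so largely decide which values are this frequent. A higher share among narrow peaks is therefore partly built in and no result. The value most frequent among broad peaks was 34.31, held by 6.

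A broad peak had a near neighbour about as often as a narrow one. Another Uextra peak lay within 1000 bp, measured between facing ends, for 91 of 172 broad peaks (52.9%, 45.2 to 60.5%) and 4310 of 8061 narrow peaks (53.5%, 52.4 to 54.6%). The gap to the nearest peak had a median of 962 bp for broad and 947 bp for narrow peaks, and the smallest gaps were 55 and 50 bp. The share differed along the coordinate. In the first 6 Mb it was 20% for broad peaks (7 of 35, 8.44 to 36.9%) and 38.8% for narrow peaks (317 of 817, 35.4 to 42.2%). Both classes are not placed alike there: 18 of the 35 broad but 79 of the 817 narrow peaks lay in the first 2 Mb. Peaks were sparser in those 2 Mb, with 79 narrow peaks against 317 in the next 2 Mb. From 6 to 26 Mb the share was 61.3% for broad (76 of 124, 52.1 to 69.9%) and 55.2% for narrow peaks (3515 of 6367, 54.0 to 56.4%). The intervals of both classes overlap in each of these stretches, by 35.4 to 36.9% in the first 6 Mb, but an overlap is no test of a difference. A gap is shared by the peaks on both its sides, so peaks are not independent, and the intervals do not allow for this.

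Runs of broad peaks lay mostly in the first 6 Mb. Of the 172 broad peaks, 13 stood next to another broad peak with no narrow peak between, in 6 runs. In the first 6 Mb, where 4.11% of all Uextra peaks were broad, this was so for 11 of 35 broad peaks, and from 6 to 26 Mb, where 1.91% were, for 2 of 124. Of the 11, 6 were among the 18 broad peaks of the first 2 Mb, where 18.6% of the peaks were broad. The longest run had 3 peaks, at 2025052 to 2026231 (1180 bp, score 57.78), 2028610 to 2029615 (1006 bp, score 31.26) and 2030934 to 2032015 (1082 bp, score 41.34). Within the runs, gaps between facing ends were 1111 to 30768 bp, so peaks of a run did not always lie close together.

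Exact widths recurred in a minority of the members. The 172 broad peaks had 152 distinct widths, and 35 (20.3%, 14.6 to 27.1%) shared theirs with another broad peak. The narrow peaks had 744 distinct widths, and 8000 of 8061 (99.2%) shared theirs, but with 67 peaks at the most frequent width they are far more densely packed over fewer than 800 possible widths. The most frequent broad width was 1216 bp, in 4 peaks with scores of 23.26, 25.46, 46.71 and 138.41. A further 3 widths occurred in 3 peaks each and 11 in 2. None of the 26 pairs of equal width had the same score, and none had scores within 5% of each other. The nearest were 25801014 to 25802229 (score 23.26) and 26377107 to 26378322 (score 25.46), both 1216 bp wide, then 19388641 to 19389976 (34.93) and 21869985 to 21871320 (31.86), both 1336 bp wide. The sequences under these peaks were not compared.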

How the data were processed

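The labels give 2 Myc ChIP samples and 1 input sample, grouped by their titles. The measurement is 1 deposited list of peaks. Per the file headers its coordinates follow release 5, and each line names MACS; CASAVA 1.7.0.2 and 1.7.0.3, BWA, MACS2 and BDGP5 stand in the submitters' processing notes, with no role or order. The authors deposited 1 score per peak with 2 decimals. The sources leave these points unstated: its scale, the threshold, any pooling of ChIP samples and how reads from repeats were placed.

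Width was end minus start plus 1, and bins were set by midpoints. Peaks were named by rule: the 10 widest, the 5 highest and 5 lowest scores, the first and last, the 3 on each side of the threshold, the nearest pairs of equal width and the longest run; examples with over 1.75 extra steps are all among the 10 widest. The members and measures were chosen with earlier results of these data known, and the stretches, steps and close pairs after the widths and gaps were seen. SciPy 1.17.1 gave the binomial intervals, pandas 2.3.3 and NumPy 2.4.6 (Python 3.11.15) the other values and Matplotlib 3.10.9 the plots, and the step measures were tested on simulated data.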

Additional observations from a re-analysis of the deposited data

How the results depend on the processing

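No paired analysis was possible because each peak has 1 score and the replicates have none of their own, so no replicate could be left out either. The share of broad peaks on Uextra, 2.09%, was 3.73% among scores at or above the list median and 22.5% after joining peaks closer than 500 bp, which turns close pairs into broad peaks. The share of broad peaks in the first 6 Mb, 20.3%, was 55.1%, 3.51% and 8.0% with broad peaks from 800, 1200 and 1500 bp, 7.95% after joining and 29.1% over the first 10 Mb, so it moves with the width at which a peak counts as broad. The share of broad peaks at or above the narrow median score, 94.2%, was 89.0%, 97.4% and 100% from 800, 1200 and 1500 bp, 79.6% among scores at or above the list median and 84.9% after joining. The share with a neighbour within 1000 bp, 52.9%, was 43.7% from 800 bp, 33.3% among the higher scores, 23.9% after joining, 39.5% within 500 bp, 87.2% within 3000 bp and 6.40% between midpoints. The share with a repeated width, 20.3%, was 63.7% from 800 bp, 0% from 1500 bp, 67.3% after joining, 90.1% for widths within 5 bp and 0% for equal widths with scores within 5%.

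Alternatives for the steps were chosen after seeing the data. The share of broad peaks' distances near a whole number plus 0.5 steps, 97.3%, was 91.9% with no minimum width. The share near whole steps between narrow peaks, 98.5%, was 96.7% with a window of 100 kb, 90.6% with no minimum width and 96.6% among the higher scores. The cause of these shifts was not tested. The other 17 of 44 alternatives moved a share by less than its interval. Unknown depth and the lack of replicate values limit every result.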
